A study of Mus musculus with 68 samples.

Results

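Endothelium is the cell layer that lines blood vessels, and its genes were followed in the pharyngeal arches of mouse embryos, the paired swellings beside the embryonic throat through which the arch arteries run. The set holds 10 genes, taken by symbol: Kdr, Flt1, Tek, Tie1, Pecam1, Cdh5, Cldn5, Emcn, Sox17 and Sox18. All 10 were found among the 21948 genes of the deposited table and all 10 passed the filter on low values, a CPM (reads of a gene scaled to a common library size, as deposited) of at least 1 in at least 3 libraries. The lowest read count of any member in any library was 22, for Sox17, so every member was detected in every library. The libraries hold RNA of whole dissected arches, so they do not separate arch arteries from capillaries, veins or endocardium taken with the arch. In such bulk samples fewer endothelial cells and less RNA per endothelial cell cannot be told apart.

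RNA was sequenced from pharyngeal arch 1 (PA1), which forms the jaws, and from pharyngeal arch 2 (PA2), the next arch toward the tail. There were 68 libraries from 35 embryos of the strain CBA/Ca/J x C57BL/10, and 33 embryos gave both arches. Embryos were labelled wildtype or Hoxa2-/-, a deletion on both alleles of a homeobox transcription factor gene used in PA2, and were collected on embryonic day E9.0, then E9.5, then E10.0 and last E10.5. Each of the 16 groups of arch, label and stage held 3 to 5 libraries, each from a separate embryo. In comparisons within 1 arch, p-values thus measure the spread between embryos. Comparisons between arches share embryos, and the main fit treats their libraries as independent. They are therefore also given with the embryo as a block.

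Endothelial cells arise from mesoderm under the transcription factor Etv2 and assemble into the first vessels as they respond to VEGF, which acts through Kdr. Tie receptors and junction proteins then stabilise the vessel wall, and SoxF factors (Sox7, Sox17 and Sox18) and Notch signalling take part in the choice of arterial fate. In the pharyngeal arches the early arteries form in order from head to tail, and those of PA1 and PA2 are later remodelled into smaller vessels.

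Reads per library ran from 8912251 to 20619153. In PA2, the mean Hoxa2 level of the wildtype groups was 22.3, 40.7, 47.5 and 58.3 CPM in stage order. It was 28.7, 60.7, 97.7 and 132 CPM in the groups labelled Hoxa2-/-, so the targeted transcript was not lower under the label. Whether the counted part of the gene lies outside the deletion is not given in the sources used here. Ski, a gene outside the set, was at 26.3 to 108 CPM in 24 of the wildtype libraries, at 9.52 to 15.5 CPM in the other 10, which are those of E10.0, and at 9.28 to 22.8 CPM in the 34 libraries labelled Hoxa2-/-. Label and this division of the libraries cannot be told apart except at E10.0, where both labels lie on 1 side. Both E9.0 and E10.5 lie on the same side within each label. There were 5 libraries that stood apart by markers of other tissues. Wildtype PA2 E9.0 replicate 2 did so by summed red cell markers (74997 CPM). Labelled Hoxa2-/- PA2 E9.0 replicate 3, labelled Hoxa2-/- PA2 E10.0 replicate 4 and wildtype PA2 E10.0 replicate 3 did so by summed yolk sac endoderm markers (455, 279 and 117 CPM). The last, labelled Hoxa2-/- PA1 E9.5 replicate 3, was picked as the highest of its group in summed mesenchyme and epithelium markers. No threshold was set for that pick, and no other group was searched. That library was the lowest of its group in Tie1, Emcn, Cldn5, Sox17 and Sox18 but the highest in Tek and Flt1. Results that rest on these 5 libraries are also given without them.

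The promoters of 4 members are shown because these genes behaved differently below. Flt1 and Tek fell in both arches, and Emcn changed less with stage. Cldn5 was the member whose course was called as differing between arches in the main fit. Sequences are from RefSeq on GRCm38.p6, read 5′ to 3′ on the gene's strand, and hold up to 250 bases before the annotated start. RefSeq promoters were matched for 6 of the 10 members: Kdr, Tek, Tie1, Flt1, Emcn and Cldn5. Capitals mark the core letters AGGAAG of ETS factors, AGATAA of GATA factors and ACAAAG of SOX factors, searched on both strands, so that a match on the other strand is printed as its reverse complement. No matches overlapped.
Flt1, chr5:147726012-147726261, minus strand: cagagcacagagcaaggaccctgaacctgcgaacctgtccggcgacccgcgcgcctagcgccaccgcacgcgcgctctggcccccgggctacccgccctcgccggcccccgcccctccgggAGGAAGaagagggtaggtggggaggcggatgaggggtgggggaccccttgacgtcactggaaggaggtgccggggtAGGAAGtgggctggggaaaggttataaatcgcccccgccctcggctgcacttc
Tek, chr4:94739039-94739288, plus strand: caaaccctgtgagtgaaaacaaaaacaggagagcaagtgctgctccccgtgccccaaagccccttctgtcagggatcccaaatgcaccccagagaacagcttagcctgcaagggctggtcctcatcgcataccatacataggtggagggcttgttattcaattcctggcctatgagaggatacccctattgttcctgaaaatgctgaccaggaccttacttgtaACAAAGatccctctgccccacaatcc
Emcn, chr3:137340828-137341066, plus strand: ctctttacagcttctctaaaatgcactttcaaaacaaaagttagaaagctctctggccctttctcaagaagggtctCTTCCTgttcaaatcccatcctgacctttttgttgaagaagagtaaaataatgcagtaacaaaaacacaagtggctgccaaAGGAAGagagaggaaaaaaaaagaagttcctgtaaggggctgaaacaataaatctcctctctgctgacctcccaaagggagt
Cldn5, chr16:18776597-18776846, plus strand: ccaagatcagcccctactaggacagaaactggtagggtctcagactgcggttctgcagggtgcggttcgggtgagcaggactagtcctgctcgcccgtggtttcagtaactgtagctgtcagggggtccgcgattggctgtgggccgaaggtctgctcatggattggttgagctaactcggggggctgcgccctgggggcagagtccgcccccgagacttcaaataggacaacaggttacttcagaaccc
The Flt1 window held 2 ETS matches and the Emcn window 2, the Tek window held 1 SOX match, and the Cldn5 window held none of these letters. Of 27025 promoters in the RefSeq table, 29.2% held the ETS letters, 10.3% the GATA letters and 16.5% the SOX letters in the same window. A match describes letters and is no evidence of binding.

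Per kilobase of exon (the union of annotated exons), Tek had the highest level of the set, with a median of 10.1 CPM per kb over the 68 libraries, followed by Kdr at 8.78, Sox18 at 7.71, Cldn5 at 6.51 and Emcn at 5.71 CPM per kb. Pecam1 at 4.89, Tie1 at 4.69 and Cdh5 at 3.17 CPM per kb came next. Sox17 at 1.54 and Flt1 at 1.39 CPM per kb were lowest. The order was a loose one: Tek ranked between first and the fifth place in single libraries and Kdr between first and the seventh. Neighbours such as Pecam1 (3.31 to 8.60 CPM per kb) and Tie1 (1.67 to 11.6 CPM per kb) overlapped over most of their range. The order also moved with stage: median Tek was 14.5 CPM per kb at E9.0 and 5.45 at E10.5, while median Pecam1 was 4.12 at E9.0 and 5.06 at E10.5.

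**Figure D1:**
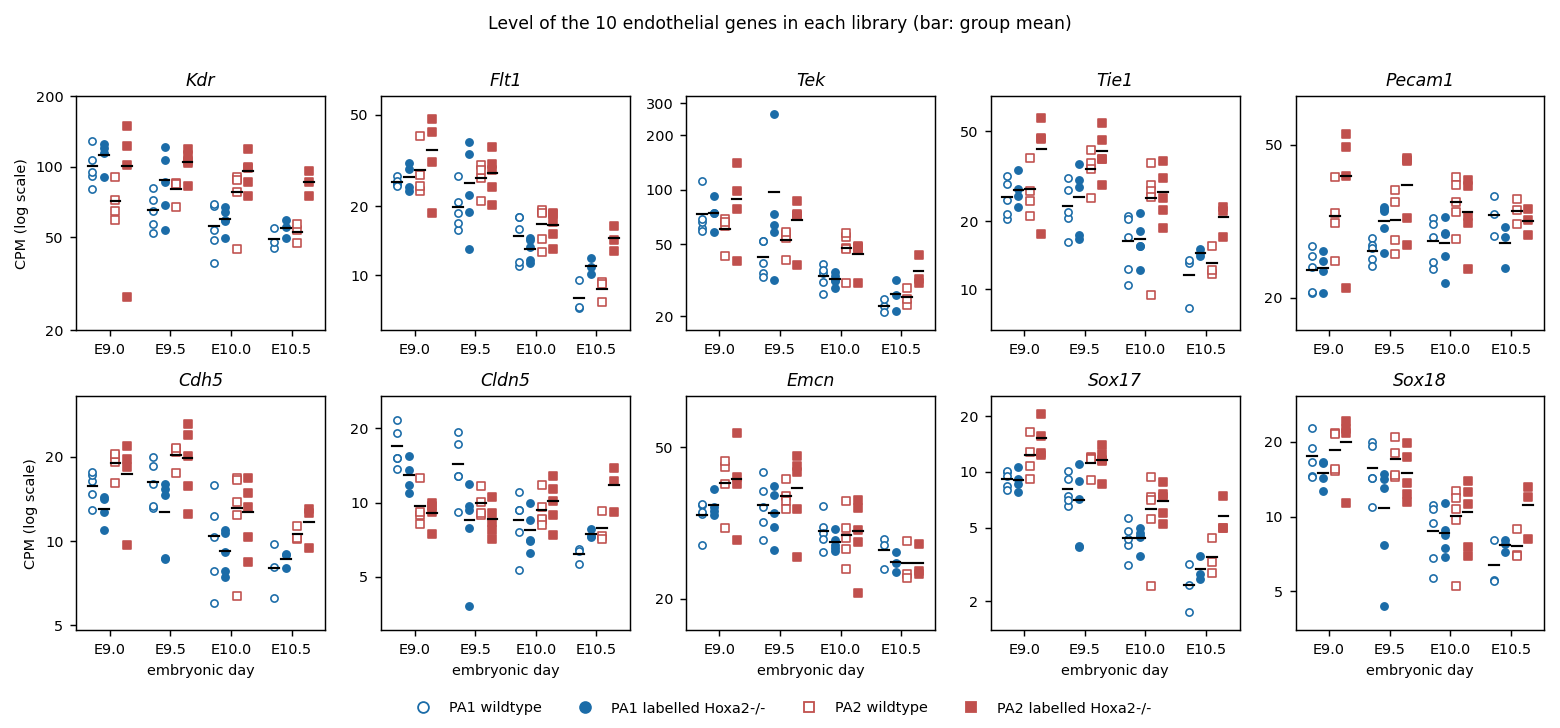
Level of each of the 10 endothelial genes in every library, in CPM on a log axis, against developmental stage; marker shape and colour give arch and label, and bars are group means. Most genes descend from E9.0 to E10.5, whereas Pecam1 is higher at E10.5 in wildtype PA1.

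The clearest pattern was a fall between E9.0 and E10.5 that took most of the set. Pecam1 was called lower in none of the 4 comparisons with all libraries. Without the libraries that stood apart it fell in labelled PA2 (difference -0.58). In wildtype PA1, 8 of 10 members fell and 1 rose (42.5% of all 18428 genes tested were called in this comparison, 21.5% as lower and 21% as higher). In wildtype PA2 7 members fell (36.9% of genes called, 19.4% as lower), in PA1 labelled Hoxa2-/- 8 fell (31.2%, 16.5% as lower) and in PA2 labelled Hoxa2-/- 6 fell (30.9%, 15.1% as lower). Flt1, Tek, Tie1, Sox17 and Sox18 fell in all 4 comparisons. Every E10.5 library was below every E9.0 library for 8, 8, 9 and 3 members in that order, against 24.8%, 20.2%, 22.1% and 14.1% of all genes, and above for 1 member in wildtype PA1, against 24.1%. The median log2 difference over the members was -1.20, -0.90, -0.87 and -0.72 in the same order, against 0.00, -0.01, -0.02 and 0.01 over all genes tested. Differences are on the log2(CPM + 1) scale, and the test was limma with Benjamini-Hochberg adjustment over all genes tested. The edgeR test on recovered reads called 9, 7, 8 and 6 members.

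The VEGF receptors come first. Flt1, at chromosome 5, 147561604 to 147726011 on the minus strand, encodes VEGFR1, a high-affinity receptor that limits VEGF signalling. In wildtype PA1 it was at 25.0, 24.9, 27.0, 25.7 and 24.4 CPM in the 5 libraries of E9.0 and at 7.19, 7.22 and 9.47 CPM in the 3 of E10.5. In wildtype PA2 it was at 40.3, 23.3, 27.4 and 24.4 CPM at E9.0 and, at E10.5, at 9.31, 9.17 and 7.65 CPM. Every E10.5 library of either arch was below every E9.0 library, and this also held under the label Hoxa2-/-. Flt1 fell by 1.57 ± 0.22 (SE) on the log2 scale in wildtype PA1 (limma adjusted p = 4.5e-08) and by 1.59 ± 0.23 in wildtype PA2 (adjusted p = 1.3e-07). Under the label Hoxa2-/- it fell by 1.22 ± 0.23 in PA1 (adjusted p = 3.3e-05) and by 1.15 ± 0.23 in PA2 (adjusted p = 8.3e-05). The intermediate stages lay between: in wildtype PA1 the means were 19.9 ± 4.47 CPM (SD, n = 5) at E9.5 and 14.8 ± 3.44 (SD, n = 5) at E10.0. The wildtype libraries of E10.0 lie on the other side of the division of the libraries, so for that mean stage and division cannot be told apart.

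Kdr, at chromosome 5, 75932827 to 75978458 on the minus strand, encodes VEGFR2, the main signalling receptor for VEGF and a mark of endothelial progenitors. In wildtype PA1 it was at 91.4, 129, 107, 80.2 and 95.1 CPM at E9.0 and, at E10.5, at 44.9, 54.9 and 47.7 CPM. In PA2 labelled Hoxa2-/- it was at 149, 102, 27.8 and 123 CPM at E9.0 and, at E10.5, at 86.0, 75.2 and 95.8 CPM. The PA1 groups were well apart, whereas in the labelled PA2 group 1 low library lay below all those of E10.5. Kdr fell in PA1, by 1.00 ± 0.26 in wildtype (limma adjusted p = 0.0013) and by 1.02 ± 0.27 under the label Hoxa2-/- (adjusted p = 0.0027). In PA2 the differences were -0.43 (adjusted p = 0.22) and 0.00 (adjusted p = 1.0). The low library is replicate 3 of the labelled E9.0 group, which stood apart. Without the 5 libraries that stood apart the difference in labelled PA2 was -0.52 (adjusted p = 0.040).

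Tek and Tie1 encode the Tie receptors, TIE2 for angiopoietins and its partner TIE1. Tek lies at chromosome 4, 94739289 to 94874976 on the plus strand, and Tie1 at chromosome 4, 118471191 to 118490061 on the minus strand. Tek was at 61.1, 66.3, 68.5, 112 and 59.5 CPM in wildtype PA1 at E9.0 and, at E10.5, at 22.7, 24.9 and 21.0 CPM. In wildtype PA2 it was at 63.4, 43.0, 68.6 and 66.7 CPM and at 23.0, 24.8 and 28.8 CPM. The stages did not overlap in either wildtype arch, and 1 PA1 library of E9.0 was far above its group. Tek fell by 1.60 ± 0.31 in wildtype PA1 (limma adjusted p = 3e-05) and by 1.19 ± 0.33 in wildtype PA2 (adjusted p = 0.0029). Under the label Hoxa2-/- the changes were -1.46 in PA1 (adjusted p = 0.00039) and -1.19 in PA2 (adjusted p = 0.0034). Tie1 was at 29.3, 31.7, 20.5, 21.5 and 24.7 CPM in wildtype PA1 at E9.0 and, at E10.5, at 8.22, 13.0 and 13.5 CPM, again with no overlap. Its changes were -1.09 and -1.01 in wildtype PA1 and PA2 (adjusted p = 0.0016 and 0.0062) and -0.87 in both labelled arches (adjusted p = 0.021 for each). The labelled calls of Tie1 rested on single libraries: in PA1 the adjusted p was 0.052 to 0.063 without E9.0 replicate 4 or any E10.5 replicate, and in PA2 0.056 to 0.10 without E9.0 replicate 1, 2 or 4 or E10.5 replicate 2.

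The junction genes divided. Cdh5, at chromosome 8, 104101625 to 104144511 on the plus strand, encodes VE-cadherin, the adhesion molecule of endothelial adherens junctions. In wildtype PA1 it was at 16.4, 17.2, 14.8, 12.9 and 17.7 CPM at E9.0 and, at E10.5, at 6.26, 9.75 and 8.07 CPM, and in wildtype PA2 at 20.2, 19.2, 20.4 and 16.2 CPM and at 10.1, 11.3 and 10.3 CPM. It fell by 0.90 ± 0.24 (limma adjusted p = 0.0015) and by 0.79 ± 0.25 (adjusted p = 0.0098) in these arches, with no overlap between stages. Under the label Hoxa2-/- the differences, -0.54 in PA1 (adjusted p = 0.092) and -0.49 in PA2 (adjusted p = 0.13), did not pass the threshold. Without the libraries that stood apart, the labelled PA1 difference was -0.54 (adjusted p = 0.037) and the labelled PA2 difference was -0.73 (adjusted p = 0.0091). No such library is in the labelled PA1 groups compared, so only the adjusted p moved there. In a fit of the compared groups alone the adjusted p was 0.0078 in labelled PA1 and 0.28 in labelled PA2.

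Pecam1, at chromosome 11, 106654217 to 106750628 on the minus strand, encodes CD31, an adhesion molecule of endothelial contacts that is also found on platelets and some leukocytes. In wildtype PA1 it was at 27.3, 24.1, 20.6, 25.7 and 20.7 CPM at E9.0 and, at E10.5, at 33.0, 36.9 and 28.9 CPM. In wildtype PA2 it was at 41.4, 25.0, 33.3 and 31.4 CPM and at 31.2, 36.2 and 33.9 CPM. All E10.5 libraries of PA1 were thus above those of E9.0, while in PA2 the stages overlapped. Pecam1 rose by 0.46 ± 0.18 in wildtype PA1 (limma adjusted p = 0.032), a call that was lost without any 1 of 4 libraries: E9.0 replicate 3 or 5, or E10.5 replicate 1 or 2. The other differences were 0.06 in wildtype PA2 (adjusted p = 0.82), 0.21 in labelled PA1 (adjusted p = 0.42) and -0.30 in labelled PA2 (adjusted p = 0.23). Without the libraries that stood apart the last was -0.58 (adjusted p = 0.0047), so that Pecam1, Cdh5 and Kdr joined the 6 members called there. Macrophage and blood progenitor markers moved with the stage: 9, 8, 8 and 7 of the 10 in the table rose in the 4 comparisons, and their summed level went from 1.79 to 49.0 CPM in the E9.0 libraries to 18.3 to 49.8 CPM at E10.5. None of these markers was at 0 in every library of a stage and arch, and their part in the Pecam1 level was not tested.

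Emcn, at chromosome 3, 137341067 to 137432185 on the plus strand, encodes endomucin, a sialomucin of the endothelial surface that in later life marks veins and capillaries. It was at 33.4, 35.3, 33.9, 35.4 and 27.7 CPM in wildtype PA1 at E9.0 and, at E10.5, at 28.8, 27.8 and 24.0 CPM, and in wildtype PA2 at 44.3, 30.7, 46.1 and 40.0 CPM and at 23.3, 22.8 and 28.4 CPM. The stages overlapped in PA1 by 1 low E9.0 library and were apart in PA2. Its difference was -0.29 in wildtype PA1 (limma adjusted p = 0.13) and it fell by 0.67 ± 0.16 in wildtype PA2 (adjusted p = 0.00087), by 0.48 in labelled PA1 (adjusted p = 0.020) and by 0.67 in labelled PA2 (adjusted p = 0.00096). The labelled PA1 call was lost without E9.0 replicate 4 or E10.5 replicate 1 or 2 (adjusted p = 0.055, 0.057 and 0.071).

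Both SoxF factors fell in all 4 comparisons. Sox17, at chromosome 1, 4490931 to 4497354 on the minus strand, is a transcription factor of arterial endothelium that is also used in endoderm. It was at 8.36, 9.92, 10.0, 7.94 and 9.52 CPM in wildtype PA1 at E9.0 and, at E10.5, at 1.74, 3.16 and 2.45 CPM. In PA2 labelled Hoxa2-/- it was at 20.5, 15.6, 12.7 and 12.4 CPM and at 4.96, 4.96 and 7.36 CPM. No E10.5 library of either label reached an E9.0 library of the same arch and label. The Sox17 changes were -1.57 and -1.55 in wildtype PA1 and PA2 (limma adjusted p = 1.1e-07 and 5.5e-07) and -1.34 and -1.26 under the label Hoxa2-/- (adjusted p = 1.4e-05 and 3.7e-05). Sox18, at chromosome 2, 181669836 to 181671640 on the minus strand, is a factor of early endothelium and of lymphatic fate. Its changes were -1.32 and -1.17 in wildtype (adjusted p = 2.8e-05 and 0.00042) and -0.88 and -0.77 under the label (adjusted p = 0.0089 and 0.023), the last of which was lost without E9.0 replicate 1, 2 or 4 or E10.5 replicate 2 (adjusted p = 0.052 to 0.16). Sox17, Sox18 and Cldn5 had the lowest read counts of the set in single libraries, at 22, 48 and 54 reads. The log2(CPM + 1) scale understates changes at such levels.

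**Figure D2:**
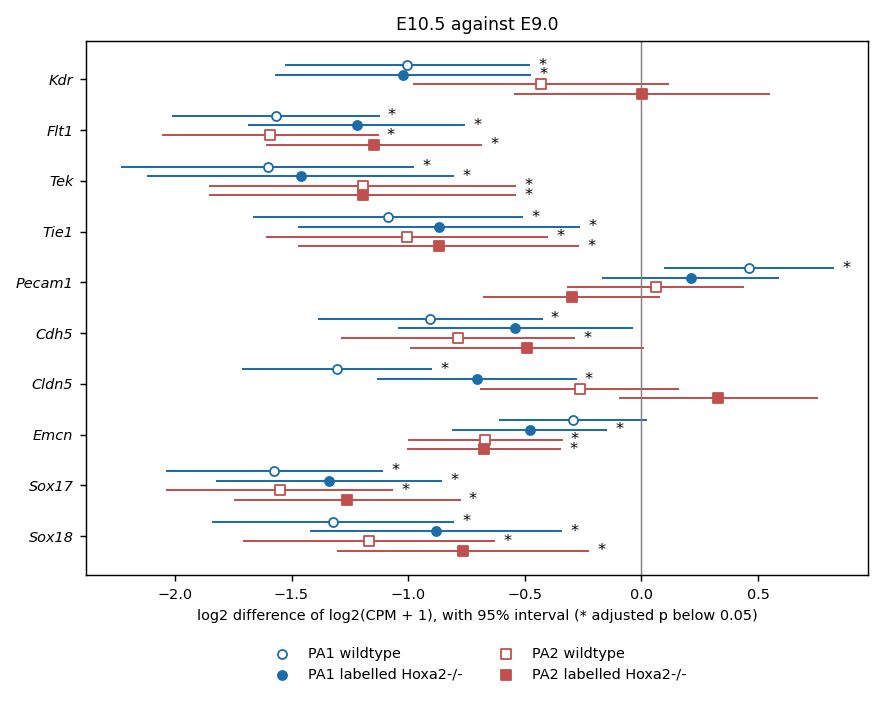
Difference between E10.5 and E9.0 for each member in each arch and label, on the log2(CPM + 1) scale, with 95% confidence intervals; an asterisk marks a limma adjusted p under 0.05. Points to the left of the zero line are lower at E10.5; Flt1, Tek, Tie1, Sox17 and Sox18 carry an asterisk in all 4 comparisons, and Pecam1 carries one to the right in wildtype PA1.

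Markers of the heart, to which the early PA2 lies next, also fell with stage in PA2. Of 13 heart muscle markers in the table, 12 were lower at E10.5 in PA2 of each label and 2 in PA1 of each label, and their summed level in PA2 was 70.9 to 1385 CPM at E9.0 and 10.3 to 14.2 CPM at E10.5, when Myl2 was at 0 in every library. In PA1 it was 25.1 to 79.6 CPM and 5.53 to 10.97 CPM. Of 7 endocardium markers 3 fell in wildtype PA1 and 6 in each other comparison, and their sum was 181 to 243 CPM in PA1 and 137 to 251 CPM in PA2 at E9.0 against 75.4 to 90.02 and 62.3 to 88.8 CPM at E10.5. The part of heart tissue in the fall was not tested. When the 15 libraries with a heart muscle sum of at least 100 CPM were left out, labelled PA2 had no E9.0 library left. Wildtype PA2 kept 1 library at E9.0, replicate 2, which stood apart by its summed red cell markers (74997 CPM). All PA1 libraries of E9.0 and E10.5 lay under that sum, so the PA1 comparisons rest on the same libraries with this limit as without it. Beside its value with all libraries, the wildtype PA2 difference under the limit was -0.81 against -0.79 for Cdh5 and -0.74 against -1.19 for Tek. It was -0.65 against -1.01 for Tie1 and -0.30 against -0.67 for Emcn. At E9.0 these values rest on wildtype PA2 replicate 2 alone, so the heart limit and its red cell level cannot be told apart.

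Markers of other tissues moved with the stage as well. Of 9 epithelium markers 6, 7, 8 and 7 fell in wildtype PA1, wildtype PA2, labelled PA1 and labelled PA2, and their sum was 867 to 1259 CPM in PA1 and 826 to 1476 CPM in PA2 at E9.0 against 538 to 654 and 460 to 580 CPM at E10.5. Of 9 smooth muscle and pericyte markers 2, 6, 1 and 5 fell, and the median of their sum went from 790 to 215 CPM in PA2. Of 7 neuron markers tested 2, 3, 1 and 1 fell, and the median of the sum of all 8 in the table went from 156 to 77.8 CPM in PA2. None of these markers was at 0 in every library of an arch at either stage, and their part in the member changes was not tested.

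Ratios within a library show how unequal the falls were. The level of Pecam1 over that of Cdh5 had a median of 1.87 in the 17 libraries of E9.0, and medians of 1.89, 2.74 and 3.26 at the later stages in order. In wildtype PA1 it was 1.53 ± 0.313 (SD, n = 5) at E9.0 and 4.21 ± 0.921 (SD, n = 3) at E10.5, with ranges of 1.17 to 1.99 and 3.59 to 5.27 that did not overlap. The median of Emcn over Cdh5 was 2.30, 2.13, 2.74 and 2.71 at the 4 stages, and that of Kdr over Cdh5 was 6.21, 4.39, 6.33 and 6.18. By arch the Kdr ratio differed at the first stage: its medians in stage order were 7.25, 5.50, 6.26 and 6.18 in PA1 and 4.08, 4.10, 7.06 and 5.95 in PA2. Sox17 over Cdh5 went from 0.629 at E9.0 to 0.323 at E10.5, so Sox17 was lower against Cdh5 as well as in level. The medians pool both labels, and all libraries of E10.0 lie on 1 side of the division, so their course mixes stage with label and division. In PA1 the mean Kdr ratio at E9.5 was 4.10 ± 0.837 in wildtype and 6.92 ± 0.957 under the label Hoxa2-/- (SD, n = 5 each). At E10.5 it was 6.24 ± 0.817 and 6.34 ± 0.276 (SD, n = 3 each). These ratios use the same libraries as the tests above and are given as a description.

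**Figure D3:**
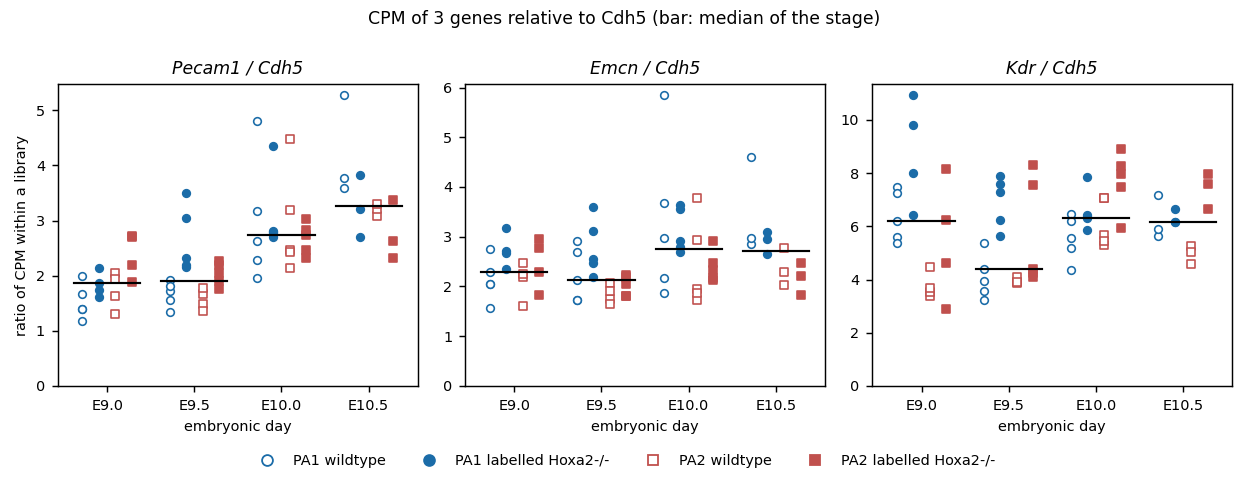
Ratio of Pecam1, Emcn and Kdr to Cdh5 within each library, on a linear axis, against stage. Points are libraries, markers give arch and label, and bars are medians of a stage over both arches and labels. The Pecam1 ratio climbs from a median of 1.87 at E9.0 to 3.26 at E10.5, and the medians of the Kdr ratio at these stages are 7.25 and 6.18 in PA1 and 4.08 and 5.95 in PA2.

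In the main fit, Cldn5 was the member whose course over time was called as differing between the arches. Cldn5, at chromosome 16, 18776847 to 18778262 on the plus strand, encodes claudin-5, a tight-junction protein of endothelium. In wildtype PA1 it was at 13.7, 21.6, 19.2, 15.2 and 15.1 CPM at E9.0 and, at E10.5, at 5.66, 6.48 and 6.40 CPM. In wildtype PA2 it was at 8.91, 12.6, 8.22 and 9.20 CPM and at 7.35, 9.22 and 7.10 CPM. PA1 thus began above PA2 with no overlap and ended below it with no overlap. In labelled PA1 it was at 15.4, 10.9, 13.5 and 11.8 CPM at E9.0 and, at E10.5, at 7.34, 7.84 and 7.26 CPM, and in labelled PA2 at 7.50, 9.69, 9.18 and 9.97 CPM and at 12.2, 9.20 and 13.9 CPM.

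Cldn5 fell in PA1, by 1.30 ± 0.20 in wildtype (limma adjusted p = 4e-07) and by 0.71 ± 0.21 under the label Hoxa2-/- (adjusted p = 0.0077), and its differences in PA2 were -0.26 (adjusted p = 0.34) and 0.33 (adjusted p = 0.24). The test of the difference between arches gave 1.04 ± 0.29 in wildtype (adjusted p = 0.028; 3.35% of genes called, 1.13% as higher) and 1.03 ± 0.30 under the label (adjusted p = 0.024; 7.33% of genes called, 4.07% as higher). Cldn5 was the 1 member of 10 called in either of these tests. Both calls were close to the threshold: in wildtype the adjusted p was 0.052 to 0.095 without E9.0 PA1 replicate 2 or 3, E9.0 PA2 replicate 1 or 4, any E10.5 PA1 replicate or E10.5 PA2 replicate 2, and under the label it was 0.054 to 0.079 without PA1 replicate 1 of either stage or E10.5 PA2 replicate 1 or 3. With the embryo as a block Kdr was called too under the label, at 1.02 (adjusted p = 0.037, and 0.087 without the block). In labelled PA2 the Kdr change between stages was 0.00 with all libraries and -0.52 without the 5 that stood apart. Without those 5, Pecam1 was called beside Cldn5 under the label, at -0.79 (limma adjusted p = 0.020). Without the libraries with a heart muscle sum of at least 100 CPM the wildtype Cldn5 value was 0.68. That comparison then holds 1 PA2 library of E9.0, replicate 2, which stood apart by red cell markers.

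Between the arches, the members tended to be higher in PA2, by amounts that passed the threshold in few single comparisons of the main fit. That fit leaves the pairing of arches within an embryo unused, and results with the embryo as a block follow below. In wildtype embryos, 1 member was called at E9.0, as lower (18.7% of all genes called, 8.53% as lower), and 0 at each later stage (26.3%, 5.94% and 1.52%). Under the label Hoxa2-/- 2 were called at E9.0, as higher (24.6%, 12.1% as higher), 1 at E9.5, as higher (9.58%, 6.12% as higher), and 0 at the later stages (4.23% and 1.37%). For the comparisons with 0 members called by limma, 4, 3 and 0 members in wildtype and 3 and 3 under the label had an unadjusted p under 0.05, and edgeR called 0 in each. The number of members with a positive PA2 minus PA1 difference was 7, 9, 9 and 9 of 10 in wildtype and 8, 9, 10 and 9 of 10 under the label from E9.0 to E10.5. The median difference over the members was 0.12, 0.31, 0.32 and 0.17, and 0.32, 0.29, 0.38 and 0.43, on the log2 scale, against -0.02 to 0.01 over all genes.

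Sox17 stood out among the genes higher in PA2. At E9.5 under the label Hoxa2-/- it was at 11.1, 7.12, 3.95, 3.98 and 8.96 CPM in PA1 and at 12.5, 11.4, 11.5, 8.55 and 14.0 CPM in PA2, which overlapped between 8.55 and 11.1 CPM. At E9.0 under that label it was at 9.16, 7.81, 10.7 and 8.64 CPM in PA1 and at 20.5, 15.6, 12.7 and 12.4 CPM in PA2, with no overlap (higher with no overlap in 9.7% of all genes). The PA2 minus PA1 differences were 0.73 ± 0.20 at E9.5 (limma adjusted p = 0.011) and 0.67 ± 0.22 at E9.0 (adjusted p = 0.020). The first was lost without PA1 replicate 3 or 4 (adjusted p = 0.059 and 0.071), and the second without PA2 replicate 1 or PA1 replicate 2 (adjusted p = 0.094 and 0.061). In wildtype embryos they were 0.36, 0.44, 0.37 and 0.38 from E9.0 to E10.5, none of which passed the threshold. Pecam1 was at 23.4, 26.4, 20.6 and 25.0 CPM in labelled PA1 at E9.0 and at 49.5, 41.5, 21.2 and 53.5 CPM in PA2, and its difference was 0.70 ± 0.17 (adjusted p = 0.0021). The PA2 library at 21.2 CPM, replicate 3, lay within the PA1 range and is among those that stood apart.

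Cldn5 ran the other way at E9.0: it was 0.74 ± 0.19 lower in wildtype PA2 than in PA1 (log2 difference -0.74, limma adjusted p = 0.0028), and the same difference under the label Hoxa2-/- was -0.46 (adjusted p = 0.076), with no overlap of the arches under either label. Of all genes, 8.81% and 7.54% were lower in PA2 with no overlap in these comparisons. By E10.5 Cldn5 was higher in PA2 with no overlap under both labels, at differences of 0.30 (adjusted p = 1.0) and 0.57 (adjusted p = 0.30). Kdr of wildtype embryos at E9.0 was at 91.4, 129, 107, 80.2 and 95.1 CPM in PA1 and at 90.6, 64.6, 72.3 and 59.3 CPM in PA2, a difference of -0.48 ± 0.24 (limma adjusted p = 0.16, and 0.042 in a fit of the compared groups alone). All but 1 of its PA2 libraries lay below the PA1 range. The labelled Kdr difference at E9.0 was -0.39 (adjusted p = 0.27). Within the labelled embryos of E9.0 it was 0.31, 0.17, -2.13 and 0.10. The value of -2.13 is that of embryo 3, whose PA2 library is among those that stood apart. At E10.0 Kdr and Sox17 were higher in labelled PA2 with no overlap, against 4.54% of all genes. At E10.5 Cdh5 and Cldn5 of wildtype embryos, and Cdh5, Kdr, Tie1, Flt1, Cldn5, Sox17 and Sox18 under the label, were higher in PA2 with no overlap, against 8.33% and 12.8% of all genes. With 3 libraries a group none of these passed the threshold.

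Because 33 of the 35 embryos gave both arches, the difference can be read within an embryo. Sox17 was higher in PA2 in 30 of 33 embryos, Flt1 in 29, Cdh5 in 28, Pecam1, Tie1 and Sox18 in 27, and Kdr and Tek in 24. Of all genes tested, 4.88% were higher in PA2 in as many embryos as Sox17 or more, 6.54% in as many as Flt1, 8.16% in as many as Cdh5, 10.2% in as many as Pecam1 and 18.1% in as many as Kdr. Emcn was higher in 19 and Cldn5 in 17 of 33. The median within-embryo difference was 0.60 for Sox17, 0.56 for Tie1, 0.41 for Cdh5, 0.35 for Pecam1, 0.34 for Kdr, 0.31 for Flt1, 0.28 for Tek, 0.22 for Sox18, 0.12 for Emcn and 0.04 for Cldn5, on the log2 scale. The counts of Cldn5 and Kdr differed between stages. In stage order Cldn5 was higher in PA2 in 0 of 4, 1 of 4, 4 of 5 and 3 of 3 wildtype embryos and in 0 of 4, 2 of 5, 4 of 5 and 3 of 3 labelled embryos. Kdr was higher in PA2 in 0 of 4, 3 of 4, 5 of 5 and 2 of 3 wildtype embryos in that order, and in 3 of 4, 3 of 5, 5 of 5 and 3 of 3 labelled embryos; in the 4 wildtype embryos of E9.0 its difference ran from -0.98 to -0.01.

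With the embryo as a block in limma, more members passed between the arches. Pecam1 joined Cldn5 in wildtype at E9.0 (0.43, adjusted p = 0.024), and Flt1 (0.44, adjusted p = 0.047) and Cldn5 (-0.43, adjusted p = 0.043) were called in wildtype at E9.5. Under the label Hoxa2-/-, Cldn5 was added at E9.0 (-0.46, adjusted p = 0.039), Cdh5 (0.60, adjusted p = 0.015) and Tie1 (0.68, adjusted p = 0.024) at E9.5, and Kdr (0.66, adjusted p = 0.029) and Sox17 (0.55, adjusted p = 0.034) at E10.0.

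**Figure D4:**
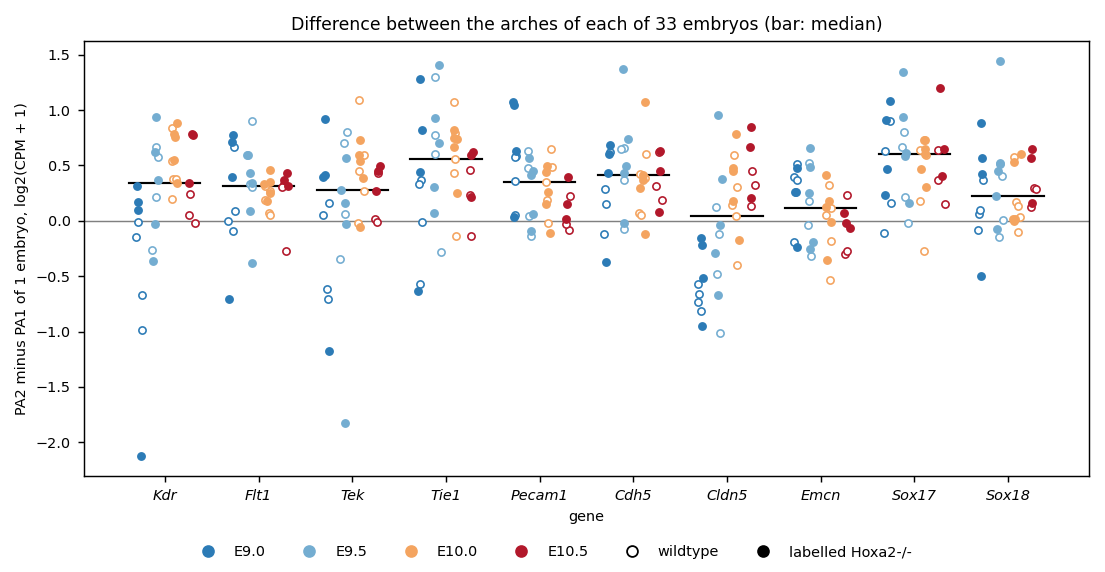
Difference between PA2 and PA1 of the same embryo for each member, on the log2(CPM + 1) scale; each point is 1 of 33 embryos, colour gives the stage, open points are wildtype and filled points labelled Hoxa2-/-, and bars are medians. Sox17 lies above zero in 30 embryos, and the Cldn5 points run from below zero at E9.0 to above zero at E10.5.

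Heart markers also differed between the arches. Of 13 heart muscle markers, 13 in wildtype and 12 under the label Hoxa2-/- were higher in PA2 at E9.0, and 4 and 4, 1 and 0, and 0 and 0 at the later stages. Of 7 endocardium markers, in stage order, 3, 2, 4 and 0 in wildtype and 2, 2, 2 and 0 under the label were higher in PA2, and 1, 1, 0 and 0 and 1, 0, 0 and 0 lower. Their part in the member differences was not tested. Within groups, the correlation over the 68 libraries with the summed heart muscle level was 0.58 for Pecam1 and 0.55 for Cdh5, Tie1 and Emcn. It was 0.52 for Flt1, 0.50 for Tek, 0.40 for Sox17, 0.38 for Kdr, 0.31 for Sox18 and 0.01 for Cldn5. These values describe libraries that share embryos and dissection. Without the 15 libraries with a sum of at least 100 CPM, the labelled count at E9.5 was 0 and the labelled count at E10.0 was 1, Kdr. None of the 15 is a labelled E10.0 library, and the Kdr difference there was 0.66 with and without them. The Sox17 difference under the label at E9.5 was then 0.76 (limma adjusted p = 0.12), against 0.73 with all libraries. The Cldn5 difference in wildtype at E9.0 was then -0.38, against -0.74. The 1 PA2 library left there was replicate 2, which stood apart by red cell markers.

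Markers of other tissues differed between the arches too. At E9.0 the median summed level of 9 smooth muscle and pericyte markers was 219 CPM in PA1 and 790 CPM in PA2, and 7 of them in wildtype and 6 under the label Hoxa2-/- were higher in PA2. The median sum of 8 neuron markers was 42.7 and 156 CPM, with 3 and 1 higher in PA2, and that of 9 arch mesenchyme markers was 762 and 493 CPM, with 7 and 4 lower in PA2. By E10.5 the medians in PA1 and PA2 were 196 and 215 CPM for smooth muscle, 43.8 and 77.8 CPM for neurons and 821 and 788 CPM for mesenchyme. None of these markers was at 0 in every library of an arch at either stage, and their part in the member differences was not tested.

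Libraries that stood apart mattered here as well. Wildtype PA2 E10.0 replicate 3 was the lowest of its group in 9 of 10 members, for example at 44.7 CPM of Kdr against 78.3 to 90.1 CPM in the others. Without it, Tie1 (0.85, limma adjusted p = 0.016) and Sox17 (0.63, adjusted p = 0.029) were called higher in PA2 at E10.0 in wildtype. Without all 5 such libraries 5 members were called there, namely Pecam1, Kdr, Tek, Tie1 and Sox17, and 6 at E9.0 under the label Hoxa2-/-, namely Pecam1, Cdh5, Tie1, Flt1, Sox17 and Sox18.

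The label comparison is given first at E10.0, where both labels lie on 1 side of the division. No member passed the threshold there. In PA1 limma called 0 of 10 members (0% of genes called), with 0 at an unadjusted p under 0.05 and 0 called by edgeR, and in PA2 0 of 10 (0.0814%), again with 0 and 0. The largest member difference was Kdr in PA2, at 88.8, 78.3, 44.7, 90.1 and 87.3 CPM in wildtype and 99.0, 74.9, 119, 99.8 and 85.9 CPM under the label Hoxa2-/-, a log2 difference of 0.32 ± 0.23 (adjusted p = 0.75). These groups overlapped. In PA1 Kdr was at 55.6 ± 13.1 CPM (SD, n = 5) in wildtype and 59.7 ± 6.79 CPM (SD, n = 5) under the label. The median difference over the members was -0.03 in PA1 and 0.04 in PA2.

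At E10.5 the members of PA2 were mostly higher under the label Hoxa2-/-, though none passed the threshold. Kdr was at 53.4, 56.8 and 47.0 CPM in wildtype PA2 and at 86.0, 75.2 and 95.8 CPM in labelled PA2, and Flt1 at 9.31, 9.17 and 7.65 CPM against 16.4, 12.7 and 14.2 CPM. Both were apart with no overlap, as were Tek, Tie1 and Sox17, so 5 of 10 members were higher with no overlap against 18.6% of all genes. The log2 differences were 0.70 ± 0.29 for Kdr (limma adjusted p = 0.12), 0.67 ± 0.25 for Flt1 (adjusted p = 0.072), 0.63 for Tie1, 0.59 for Sox17 and 0.44 for Tek. limma called 0 members (10.3% of genes called), 4 had an unadjusted p under 0.05, and edgeR called 0. A fit of the compared groups alone called 3, Kdr (adjusted p = 0.0053), Flt1 (adjusted p = 0.017) and Tie1 (adjusted p = 0.030). Pecam1 and Emcn differed by -0.09 and 0.01. At this stage the label and the division of the libraries cannot be told apart.

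In PA1 at E10.5, 0 members were called (3.05% of genes called), 0 had an unadjusted p under 0.05 and edgeR called 0. Tie1, Flt1 and Cldn5 were higher under the label with no overlap, 3 of 10 against 14.4% of all genes: Flt1 was at 7.19, 7.22 and 9.47 CPM in wildtype and at 11.9, 10.1 and 10.8 CPM under the label, a difference of 0.42 (limma adjusted p = 0.44). The difference of the label effect between arches was called for 0 members at any of the 4 stages (in order 0%, 0.0109%, 0.0163% and 0.038% of genes called), with 0, 1, 0 and 0 at an unadjusted p under 0.05 and 0 by edgeR at each. For Kdr at E10.5 this difference was 0.55 ± 0.41 (adjusted p = 1.0), so the PA2 value was not shown to differ from the PA1 value of 0.15.

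**Figure D5:**
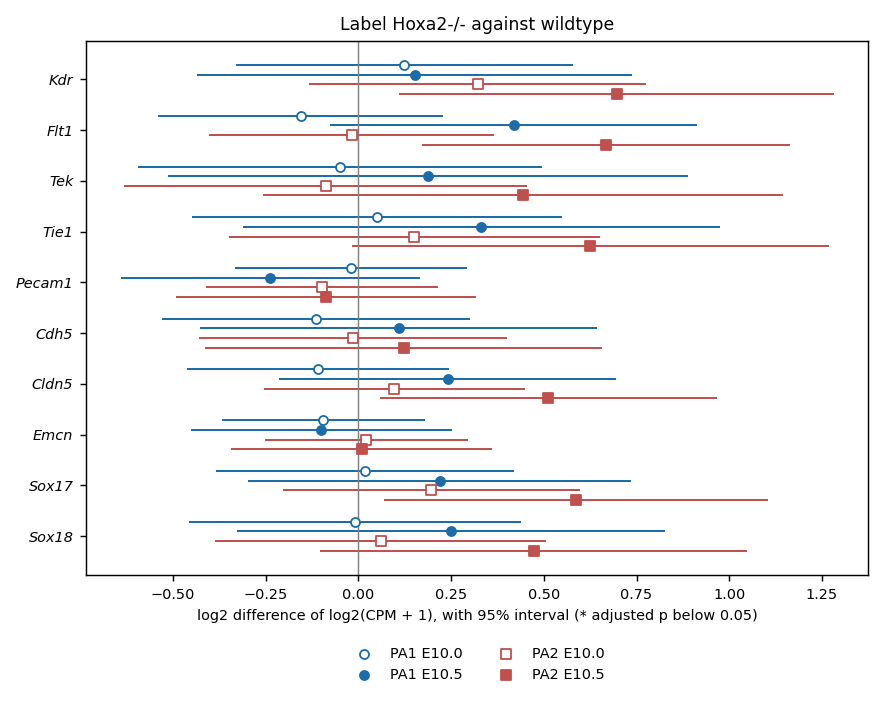
Difference between the label Hoxa2-/- and wildtype for each member in each arch at E10.0 and E10.5, on the log2(CPM + 1) scale, with 95% confidence intervals. No limma adjusted p was under 0.05; at E10.0 all values lie between -0.16 and 0.32, and at E10.5 in PA2 Kdr reaches 0.70 and Flt1 0.67.

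At the earlier stages 3 members were called in PA1 at E9.5 (23.6% of genes called, 11.4% as higher and 12.2% as lower): Tek was 0.82 ± 0.27 higher under the label Hoxa2-/- (limma adjusted p = 0.021), Cldn5 was 0.71 ± 0.17 lower on the log2 scale (difference -0.71, adjusted p = 0.0022) and Sox18 0.58 ± 0.22 lower (difference -0.58, adjusted p = 0.047). Tek was at 34.7, 52.4, 52.0, 39.6 and 33.0 CPM in wildtype and at 73.4, 58.1, 261, 31.6 and 63.6 CPM under the label. The library at 261 CPM, replicate 3, is among those that stood apart and also held the lowest Cldn5 (3.81 CPM) and Sox18 (4.37 CPM) of the group. Without it Cldn5 was still called (-0.48, adjusted p = 0.031), whereas Tek (0.37, adjusted p = 0.26) and Sox18 (-0.33, adjusted p = 0.30) were not. Tek was also lost without wildtype replicate 1 (adjusted p = 0.063), and Sox18 without wildtype replicate 1, 3 or 4 or labelled replicate 4 (adjusted p = 0.071 to 0.15). edgeR called 2 members, without Sox18. In PA2 at E9.5 0 members were called (4.48% of genes called; 0 at an unadjusted p under 0.05; 0 by edgeR).

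At E9.0 limma called 0 members in PA1 (2.08% of genes called) and 0 in PA2 (14%), with 0 at an unadjusted p under 0.05 and 0 by edgeR in each. The PA2 result depended on labelled replicate 3, in which Kdr was at 27.8 CPM against 102 to 149 CPM in the other 3 libraries. Without it Kdr (0.79, limma adjusted p = 0.0043), Tie1 (0.85, adjusted p = 0.024) and Pecam1 (0.56, adjusted p = 0.011) were called higher under the label Hoxa2-/-. Wildtype replicate 2 of this comparison also stood apart. Without all 5 such libraries Kdr (0.75, adjusted p = 0.0086) and Tie1 (0.73, adjusted p = 0.040) were called, and Pecam1 was not.

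Other endothelial genes fell with stage like the members. Of 29 such genes, all tested, 18 fell and 1 rose in wildtype PA1, 21 and 2 in wildtype PA2, 18 and 2 in labelled PA1 and 17 and 2 in labelled PA2, with median differences of -0.86, -0.83, -0.67 and -0.83. Podxl, a sialomucin that is also made outside endothelium, had the highest level and fell by 2.17, 2.72, 2.07 and 1.88 on the log2 scale (limma adjusted p = 7.7e-07, 1.8e-08, 9.5e-06 and 4.4e-05). Etv2, the factor that specifies endothelial progenitors, fell by 2.88 in wildtype PA1 (adjusted p = 2.4e-10), from 6.86 ± 2.17 (SD, n = 5) to 0.0347 ± 0.0601 CPM (SD, n = 3), and by 2.62, 2.77 and 1.95 in the other comparisons. At E10.0 Etv2 was higher in PA2 than in PA1, by 1.60 in wildtype (adjusted p = 5.6e-05) and by 1.66 under the label Hoxa2-/- (adjusted p = 4.3e-05). Robo4, a receptor that stabilises vessels, rose in each, by 1.08, 1.04, 1.17 and 1.51 (adjusted p = 0.00040, 0.0013, 0.00042 and 7.8e-06). Fli1, an ETS factor also used in blood and in arch mesenchyme, rose in PA2, by 1.16 in wildtype and 1.18 under the label, and was lower in wildtype PA2 than in PA1 at E9.0 (difference -0.73, adjusted p = 2.2e-06). Cd34 was called in none of the 4 stage comparisons.

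Between arches, 7 of the 29 were higher in wildtype PA2 at E9.0 and 1 lower, and at the later stages 3 and 3, 2 and 0, and 0 and 0. Under the label Hoxa2-/- the counts were 6 and 1, 5 and 0, 1 and 0, and 0 and 0. Label differences of these 29 genes were 0 in both arches at E10.0. At E10.5 4 were higher in labelled PA2, among them She, an adaptor protein gene, at 13.9 ± 2.66 CPM against 6.66 ± 1.43 CPM (SD, n = 3 each) (difference 0.96, limma adjusted p = 0.020). In PA1 at E9.5 2 were lower, with the largest difference in Cyyr1 (-0.89, adjusted p = 0.0025).

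Some arterial genes were higher in PA2 at each stage. Of 15 on that list, 8, 11, 6 and 1 were higher in wildtype PA2 from E9.0 to E10.5, against 10.2%, 12.7%, 4.51% and 0.868% of all genes. In labelled PA2 7, 8, 5 and 2 were higher, against 12.1%, 6.12%, 3.13% and 0.982% of all genes, and 0 were lower in any of these comparisons. Several of these genes are also used in arch mesenchyme and epithelium, so the list is not specific to arteries in whole arches. Hey1, a target of Notch signalling, was higher in PA2 in all 8 comparisons, from a difference of 1.13 in wildtype at E9.5 (limma adjusted p = 8.1e-07) to 2.31 under the label at E10.5 (adjusted p = 6.6e-13). Efnb2, the ephrin of arterial endothelium, had the highest level and was higher in PA2 in wildtype at E9.5 (0.67, adjusted p = 0.0038) and under the label at E10.0 (0.55, adjusted p = 0.041). Nrp1, a VEGF coreceptor, was higher in wildtype at E9.5 (0.80, adjusted p = 0.023) and under the label at E9.0 (0.99, adjusted p = 0.0080). Jag1, a Notch ligand, was 1.11 higher under the label in PA2 at E10.5 (adjusted p = 0.0037). With stage 5, 10, 6 and 7 of the 15 fell and 1, 1, 1 and 0 rose, with Hey2 at -1.76, -2.29, -1.47 and -1.79 (each called), and Jag2 at 1.94 in wildtype PA1 (adjusted p = 3e-05).

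Of 9 venous and lymphatic genes, 7 passed the filter. With stage 3, 1, 3 and 2 of the 7 fell and 0, 1, 1 and 3 rose. Nr2f2, the factor of venous identity that arch mesenchyme also uses, rose by 1.00 in labelled PA2 (limma adjusted p = 5.3e-07), and Ephb4, the venous partner of Efnb2, rose by 0.57 there (adjusted p = 0.0056) and by 0.43 in wildtype PA2 (adjusted p = 0.034). Flt4, the receptor VEGFR3, fell by 2.00 in wildtype PA1 (adjusted p = 2.8e-07). Aplnr, the apelin receptor, was lower in wildtype PA2 than in PA1 at E9.0 (difference -1.04, adjusted p = 0.00014). Prox1, the factor of lymphatic fate that is also used in other tissues, was higher in PA2 in all 8 comparisons, by 0.98 to 1.54.

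Ligand genes of the VEGF and angiopoietin families took different courses. Of 8, 3, 4, 3 and 4 fell with stage and 1 rose in each comparison. Vegfa, the main ligand of Kdr, fell by 0.62, 1.14, 0.53 and 0.73 on the log2 scale (limma adjusted p = 0.0022, 5.7e-07, 0.017 and 0.0010). Vegfb, a ligand of Flt1, fell in wildtype, by 0.67 in PA1 and 0.36 in PA2 (adjusted p = 3.5e-05 and 0.034), and differed by -0.34 and -0.20 under the label (adjusted p = 0.055 and 0.28); the difference between labels in this change was not tested. Angpt2, the angiopoietin that destabilises vessels through Tek, fell by 1.11, 2.69, 1.26 and 2.57 (adjusted p = 0.0096, 5.8e-08, 0.0074 and 2.5e-07), and it was higher in PA2 than in PA1 at E9.0, by 1.16 in wildtype (adjusted p = 0.0090) and 1.58 under the label Hoxa2-/- (adjusted p = 0.00055). Vegfd rose by 1.49, 2.179, 1.55 and 1.35 (adjusted p = 2.4e-06, 1.4e-09, 5.2e-06 and 5.3e-05). Vegfc, a ligand of Flt4, was called in none of the stage comparisons.

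Within groups the members moved together from embryo to embryo, to unequal degrees. Over the 68 libraries, after subtracting group means, the correlation of a member with the mean of the other 9 was 0.87 for Tie1, 0.84 for Cdh5, 0.80 for Kdr, 0.79 for Sox18, 0.71 for Pecam1, 0.70 for Sox17, 0.60 for Flt1, 0.57 for Emcn, 0.42 for Tek and 0.30 for Cldn5. Among the 45 pairs of members it ran from -0.21 (Tek and Cldn5) to 0.85 (Cdh5 and Tie1), with a median of 0.48. These points share embryos and libraries, so the values describe the libraries. Of 10500 other genes with a mean of at least 5 CPM, those most like the members by this measure were Mmrn2 (r = 0.87), Stab1 (0.87), Sema6d (0.83), Plvap (0.82), Esam (0.81), Gja4 (0.81), Rgs3 (0.80), She (0.79), Tnc (0.77) and Sox7 (0.77). Mmrn2, Plvap, Esam, She and Sox7 are on the list of other endothelial genes, Gja4 is on the arterial list and Stab1 on the venous and lymphatic list.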

How the data were processed

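RNA of dissected arches was amplified as cDNA by the SMART-seq v4 chemistry and made into libraries by Nextera XT, per the labels' protocols; such PCR-amplified reads carry no molecular identifiers, so read counts are not independent molecules. The submitters' processing notes name bcl2fastq 2.18, TopHat2 2.1.1, R 3.3.2 and the build mm10, per the submitters' processing notes; their roles, the counting program, its strandedness and its annotation are not given in the sources used here.

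The authors deposited 1 table of CPM-like values, recorded as a signal because its column totals ran from 926298 to 1051959. Of the deposited values, 100% were whole multiples of 1 read within 0.01 reads (largest distance 9.1e-05), and the values are called CPM here. Symbols, coordinates and exon lengths came from GENCODE M21 on GRCm38 by gene identifier, with 21921 of 21948 identifiers matched. The test design was written for CPM and was kept. For recovered reads, the chi-square statistic of 116 replicate pairs divided by its degrees of freedom was 6.38 to 107, so no pair was counted as 1 sample.

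The filter (CPM of 1 or more, in 3 or more libraries) left 18428 genes. limma 3.58.1 in R 4.3.3 was fitted to log2(CPM + 1) of all 68 libraries, with a mean for each of the 16 groups and a trended prior variance, with two-sided tests, Benjamini-Hochberg adjustment over the kept genes and a threshold of 0.05. Ranges are called apart where no library of 1 group reached a library of the other. Other settings tried were a pseudocount of 0.25 or 5, dropping the filter, a filter at a CPM of 5, median-of-ratios scaling, only the compared groups, the embryo as a block, edgeR 4.0.16 on recovered reads and each library left out; leaving out the 5 libraries that stood apart, or those with summed heart muscle markers of at least 100 CPM, was chosen after seeing the data. The fitting code was tested on simulated data.

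PA1 and PA2 with the same number came from the same embryo, per the series text. Over 33 embryos the deviations of the arches from their group means had a median correlation of 0.35, and 30 pairs were over 0.1; the block used a correlation of 0.22.

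The members and gene lists were chosen with earlier results of these data known. Named genes were all 10 members, the 3 genes of each endothelial list with the highest mean level and those with the largest called difference, and the 10 genes most like the members; other genes are named as markers of a limit.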

Additional observations from a re-analysis of the deposited data

Results flagged for a closer look

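Among 120 sets of 1 member in 1 group of 4 or 5 libraries, 8 held a library far from the rest of its group by the gap between it and its nearest neighbour, where chance alone would mark about 1 in 20 sets. Tek gave 3 of them: 261 CPM in labelled Hoxa2-/- PA1 E9.5 replicate 3, 112 CPM in wildtype PA1 E9.0 replicate 4 and 30.7 CPM in labelled Hoxa2-/- PA2 E10.0 replicate 2, of which the last was low and the others high. Wildtype PA2 E9.5 replicate 2 was low in 3 members, with Cdh5 at 17.5 CPM, Kdr at 67.2 CPM and Sox17 at 9.02 CPM. Kdr was low, at 44.7 CPM, in wildtype PA2 E10.0 replicate 3, and Emcn was low, at 27.7 CPM, in wildtype PA1 E9.0 replicate 5.

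The change of Cldn5 from E9.0 to E10.5 differed between PA2 and PA1 by 1.04 on the log2 scale in wildtype embryos and by 1.03 under the label Hoxa2-/-, each by a limma test of the difference itself.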

How the results depend on the processing

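No member difference reversed among called results. Counts of members called that moved by over 1.5 times are given by setting. With a pseudocount of 5 the PA2 against PA1 count was 1 in wildtype at E9.5 and 2 under the label Hoxa2-/- at E9.5. The filter at a CPM of 5, median-of-ratios scaling and edgeR each gave 2 in wildtype at E9.0 and 2 under the label at E9.5. With only the compared groups the PA2 against PA1 counts were 2 (wildtype E9.0) and, under the label, 0 (E9.0), 0 (E9.5), 4 (E10.0) and 1 (E10.5), the label counts were 0 (PA1 E9.5) and 3 (PA2 E10.5), and the stage count in labelled PA2 was 2, with the calls of Tek, Tie1, Emcn and Sox18 lost. With the replicate block by embryo the PA2 against PA1 counts were 2 (wildtype E9.0), 2 (wildtype E9.5), 3 (labelled E9.5) and 2 (labelled E10.0), and the test of the stage change between arches called 2 under the label; beside the labelled E9.0 count, which went from 2 to 3, the block changed no other count.

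Without the 5 libraries that stood apart the PA2 against PA1 counts were 3, 2 and 5 in wildtype from E9.0 to E10.0 and 6 (E9.0) and 2 (E10.0) under the label, the label counts in PA2 were 2 at E9.0 and 2 at E10.5, and the stage change differed between arches for 2 members under the label. None of the 5 is a wildtype E9.5 or an E10.5 library, so the wildtype E9.5 count and the E10.5 label count rest on the same libraries as before. Without the libraries with a heart muscle sum of at least 100 CPM the PA2 against PA1 counts were 0 (labelled E9.5) and 1 (labelled E10.0), and the label counts were 1 (PA1 E9.5) and 2 (PA2 E10.5). No labelled E10.0 library and no E10.5 library was left out by this limit. The counts of those comparisons therefore rest on the same libraries as before. Comparisons with wildtype PA2 of E9.0 then held 1 library of that group, replicate 2, which stood apart by red cell markers.

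With each library left out in turn, the PA2 against PA1 counts ranged from 1 to 2, 0 to 1 and 0 to 2 in wildtype from E9.0 to E10.0, and from 1 to 4 and 0 to 3 under the label at E9.0 and E9.5. The label counts ranged from 1 to 3 in PA1 at E9.5 and from 0 to 3 in PA2 at E9.0. The stage counts ranged from 8 to 9, 7 to 7, 6 to 8 and 4 to 8, and the tests between arches from 0 to 1 in wildtype and 0 to 2 under the label. The causes of these moves were not tested, apart from the smaller number of libraries or genes that a setting itself makes. Median-of-ratios scaling changed no member difference by more than 0.03 on the log2 scale. With 3 libraries a group at E10.5, the standard error of a label difference ran from 0.17 (Emcn) to 0.35 (Tek) on the log2 scale, which limits what could be detected.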
